A study of Mus musculus with 3 samples.

Results

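The heavy chain V segments of the immunoglobulin locus were examined in 3 libraries of lymphoma cells, with attention to the segments beyond the one that led each tumour. Members were all rows whose name begins with Ighv, annotated as a V gene or a V pseudogene, with at least 1 raw count in any library. Of 160 Ighv rows among the 37646 rows of the count tables, 105 were members, namely 95 of 112 V genes (84.8%) and 10 of 48 V pseudogenes (20.8%). The counts themselves chose the members, so these shares are a description. At the edge of the rule, 15 members had a summed count of 1, and 55 rows (17 genes and 38 pseudogenes) had no count.

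The lymphomas arose in C57BL/6 mice of the pBIC2 model of activated B cell type diffuse large B cell lymphoma. All 3 libraries share 1 genotype, in which floxed p53 (p53F/F), floxed Blimp1 (Blimp1F/F) and a floxed stop cassette before an active IKK2 (IKK2castopF/stopF) are combined with Cre from the Cγ1 locus (Cg1Cre/+) and a BCL2 transgene (Eµ-hBCL2tg/+). Cγ1-driven Cre acts in B cells that transcribe this constant gene, whereas no stop cassette is named for the BCL2 transgene. B220+GFP+ lymphoma cells were sorted from spleen, the protocol naming moribund and control mice as donors, and the age and the number of mice per library are not stated. The libraries, called tumours 1, 2 and 3, form 1 group, so no contrast between groups was fitted, and the differences described are between single libraries. The comparison with germinal centre B cells of immunised mice that the study design names was not analysed here. Tumours 1, 2 and 3 had 15576975, 16477997 and 17014022 counts in all. The 10 pan B cell markers were at 10 CPM (counts scaled to library size with TMM factors) or more in every tumour. The T cell list had a median of 0.630, 3.92 and 60.8 CPM over 10 genes in tumours 1, 2 and 3, and 8 plasma cell genes had a median of 80.5, 28.1 and 28.3 CPM.

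A B cell builds its heavy chain by joining 1 V, 1 D and 1 J segment, after which the promoter of the joined V segment comes under the enhancers of the locus. A clone therefore transcribes mainly 1 V segment, whereas a mixed B cell population shows many. V segments are grouped into families by sequence likeness, and V pseudogenes lack an intact reading frame or a functional joining signal. Ighv11-2 and Ighv12-3 are known from mouse B-1 cells that bind phosphatidylcholine.

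The sequences of 7 segments are shown because they set how far reads of 50 nt can be assigned. They are the leading segments Ighv11-2 (tumour 1), Ighv14-3 (tumour 2) and Ighv12-3 (tumour 3), the next segments Ighv11-1, Ighv14-2 and Ighv2-2, and the pseudogene Ighv1-14. Each line gives the last 300 bases of the V exon in GENCODE M21 (GRCm38, the assembly called mm10), from the minus strand of chromosome 12 and read 5′ to 3′. Capitals mark bases that lie in a stretch of 50 bases also found in another annotated Ighv segment. The positions are chr12:114048241-114048540 (Ighv11-2), chr12:113981879-113982178 (Ighv11-1), chr12:114059845-114060144 (Ighv14-3), chr12:113994469-113994768 (Ighv14-2), chr12:114366521-114366820 (Ighv12-3), chr12:113588267-113588566 (Ighv2-2) and chr12:114646572-114646871 (Ighv1-14), all in the coding exon of a V gene except the last, which is in an exon of a pseudogene.
Ighv11-2: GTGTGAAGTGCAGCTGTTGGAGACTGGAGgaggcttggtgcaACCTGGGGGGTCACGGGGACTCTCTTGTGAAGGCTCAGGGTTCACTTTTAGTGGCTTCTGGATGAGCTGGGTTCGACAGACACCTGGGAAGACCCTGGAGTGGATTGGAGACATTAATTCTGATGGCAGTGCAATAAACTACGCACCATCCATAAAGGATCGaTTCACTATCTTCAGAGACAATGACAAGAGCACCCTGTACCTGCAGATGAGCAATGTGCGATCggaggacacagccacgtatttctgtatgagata
Ighv11-1: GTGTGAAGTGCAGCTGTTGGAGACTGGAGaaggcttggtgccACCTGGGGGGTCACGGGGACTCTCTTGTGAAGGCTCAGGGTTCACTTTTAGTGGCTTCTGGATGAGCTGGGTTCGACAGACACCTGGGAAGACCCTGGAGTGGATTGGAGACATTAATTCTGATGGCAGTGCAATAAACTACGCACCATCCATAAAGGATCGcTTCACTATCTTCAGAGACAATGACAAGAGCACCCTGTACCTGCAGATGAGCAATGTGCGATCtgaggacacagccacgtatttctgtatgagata
Ighv14-3: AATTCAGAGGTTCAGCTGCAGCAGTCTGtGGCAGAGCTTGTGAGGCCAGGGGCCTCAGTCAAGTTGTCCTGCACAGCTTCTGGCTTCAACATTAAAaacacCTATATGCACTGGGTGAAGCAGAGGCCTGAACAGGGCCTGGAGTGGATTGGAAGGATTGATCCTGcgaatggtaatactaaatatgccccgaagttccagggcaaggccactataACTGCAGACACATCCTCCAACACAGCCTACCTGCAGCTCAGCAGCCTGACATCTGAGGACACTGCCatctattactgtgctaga
Ighv14-2: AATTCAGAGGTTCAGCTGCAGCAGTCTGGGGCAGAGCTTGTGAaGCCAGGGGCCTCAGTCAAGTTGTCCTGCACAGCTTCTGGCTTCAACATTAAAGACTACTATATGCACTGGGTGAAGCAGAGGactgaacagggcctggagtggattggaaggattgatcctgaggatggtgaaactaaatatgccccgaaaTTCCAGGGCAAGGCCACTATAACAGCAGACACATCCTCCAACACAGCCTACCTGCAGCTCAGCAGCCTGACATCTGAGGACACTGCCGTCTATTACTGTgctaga
Ighv12-3: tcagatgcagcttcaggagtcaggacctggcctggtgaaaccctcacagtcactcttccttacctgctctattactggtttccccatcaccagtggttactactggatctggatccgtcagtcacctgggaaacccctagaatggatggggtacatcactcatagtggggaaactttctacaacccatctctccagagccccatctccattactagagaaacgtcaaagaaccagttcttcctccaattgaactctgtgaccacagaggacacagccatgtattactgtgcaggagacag
Ighv2-2: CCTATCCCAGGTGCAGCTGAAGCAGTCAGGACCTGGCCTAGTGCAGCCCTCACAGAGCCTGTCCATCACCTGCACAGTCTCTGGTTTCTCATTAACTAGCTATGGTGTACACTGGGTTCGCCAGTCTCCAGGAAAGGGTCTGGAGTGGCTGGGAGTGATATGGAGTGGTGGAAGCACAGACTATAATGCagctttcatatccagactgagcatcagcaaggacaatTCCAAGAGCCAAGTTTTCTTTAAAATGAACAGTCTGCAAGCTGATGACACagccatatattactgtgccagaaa
Ighv1-14: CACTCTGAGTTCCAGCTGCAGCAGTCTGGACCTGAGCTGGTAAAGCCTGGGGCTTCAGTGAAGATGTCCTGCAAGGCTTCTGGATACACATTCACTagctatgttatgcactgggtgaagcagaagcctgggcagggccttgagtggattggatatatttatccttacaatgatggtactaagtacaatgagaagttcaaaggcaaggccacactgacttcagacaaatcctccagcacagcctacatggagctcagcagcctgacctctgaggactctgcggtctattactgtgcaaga

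Ighv11-2 and Ighv11-1 matched at 296 of 300 positions (98.7%), and 253 of the 300 bases of each lay in shared stretches. Ighv14-3 and Ighv14-2 matched at 287 of 300 (95.7%), with 226 and 224 bases in stretches shared with any other annotated Ighv segment. Ighv12-3 had none, so its reads cannot be exchanged with another annotated segment without a mismatch. Ighv2-2 had 239 shared bases, most of them with Ighv2-4, and Ighv1-14 had 96. Over whole transcripts, 12 of 105 members had every stretch of 50 bases to themselves among the members, the median member had 80.6% of its stretches to itself, and 8 members had less than 50%. Ighv14-3 had 79.1% and Ighv14-2 had 62.9% of its stretches to itself. They shared 73 and 88 stretches with Ighv14-1. How reads with several hits were counted is not stated, which leaves the division of counts within a family uncertain. The leading family was therefore set aside as a whole.

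Each tumour kept a tail of many V segments outside the family of its leading segment, but the size and the make-up of that tail differed. The Ighv members summed to 6305, 6450 and 12892 counts in tumours 1, 2 and 3, or 418, 395 and 727 CPM. The leading family held 4977, 5690 and 11667 of these counts. Outside it, 1328 counts (21.1%, 95% Wilson interval 20.1 to 22.1) remained in tumour 1, 760 in tumour 2 (11.8%, 11.02 to 12.6) and 1225 in tumour 3 (9.50%, 9.01 to 10.02). The mean was 14.1 ± 6.12% (SD, n = 3), and the 3 intervals did not overlap. All intervals treat reads as independent and cover counting error only, with 1 library per tumour. The labels name no molecular tags, so repeated reads of a molecule cannot be told apart and the intervals may be too narrow.

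The tail of tumour 1 was mostly a single segment. Ighv2-2, a V gene of family 2, had 1084 counts in tumour 1, 25 in tumour 2 and 25 in tumour 3. Of its stretches of 50 bases, 44.6% were its own among the annotated segments. It made up 81.6% (79.5 to 83.6) of the counts of tumour 1 outside family 11. With every family that had a segment at 10% or more set aside, which removes families 11 and 2 in tumour 1, only 234 counts were left there (3.71%, 3.27 to 4.21), against 760 and 1225 in tumours 2 and 3, where this changed nothing. On the CPM scale this remainder was 15.5, 46.6 and 69.0 in tumours 1, 2 and 3.

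On the CPM scale this remainder was lowest in tumour 1 and highest in tumour 3, whereas as a share of Ighv counts it was highest in tumour 2. The medians of 6 marker lists, whose part in it was not tested, had the order of the CPM values. These were the T cell list given above, the 6 NK cell genes (0, 0.184 and 0.507 CPM), the 8 germinal centre genes (0.431, 2.18 and 7.07 CPM), the 5 neutrophil genes (0, 1.96 and 7.27 CPM), the 5 follicular B cell genes (136, 145 and 286 CPM) and the 6 B-1 genes (96.4, 102 and 161 CPM). Summed levels kept this order for the NK cell list (1.86, 2.45 and 48.3 CPM) and the neutrophil list (0.199, 15.9 and 38.4 CPM), and not for the other 4. The NK cell sum of tumour 3 was mostly Prf1 (0, 26 and 709 counts in tumours 1, 2 and 3) and Gzma (0, 4 and 130). Klrd1 (2, 7 and 10) and Klre1 (0, 2 and 8) kept the order on few counts. Klrb1c had the opposite order (26, 1 and 0), and Ncr1 had 0 in every tumour. The T cell list summed to 80.0, 65.1 and 993 CPM in tumours 1, 2 and 3, of which Lck gave 68.7, 23.5 and 200 CPM. Cd4 was highest in tumour 2 (9, 95 and 16 counts). Apart from Lck and Cd4, the genes of the T cell list rose from tumour 1 to tumour 3, such as Cd3e with 0, 23 and 1023 counts. The germinal centre list summed to 161, 124 and 84.1 CPM, the opposite order, with Gcsam at 0 in every tumour. The follicular list summed to 679, 662 and 1190 CPM and the B-1 list to 1072, 1197 and 1092 CPM. The medians of the 7 macrophage genes (0.862, 10.4 and 2.59 CPM) and of the 4 erythroid genes (1.56, 3.68 and 2.48 CPM) were highest in tumour 2. So was the median of the 10 pan B cell genes (853, 1338 and 905 CPM), which summed to 20221, 18689 and 13340 CPM. The plasma cell list summed to 839, 576 and 485 CPM. Of its genes, Derl3 (1954, 506 and 109 counts), Mzb1 (2344, 2312 and 795) and Irf4 (5908, 4840 and 4134) were highest in tumour 1, while Xbp1 (1358, 1195 and 2008) and Slamf7 (1072, 411 and 1333) were highest in tumour 3. Jchain, the joining chain of secreted IgM, had 21, 132 and 210 counts, Sdc1 had 3, 7 and 9, and Tnfrsf17 had 3, 0 and 0. In bulk RNA, fewer cells of a type and less RNA per cell cannot be told apart.

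**Figure D1:**
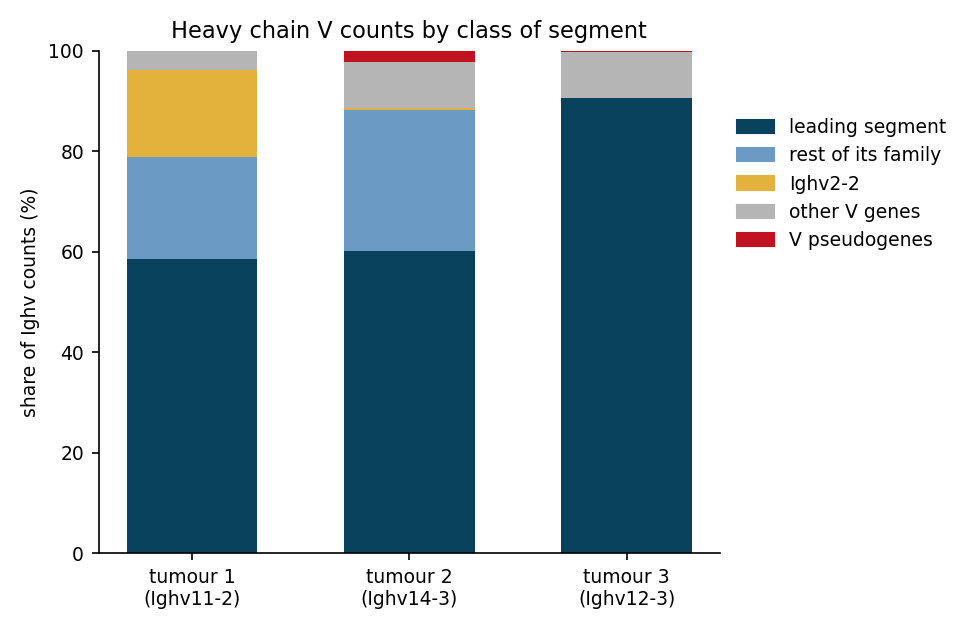
Share of Ighv counts (%) in each tumour, stacked by class of segment, with the leading segment named under each bar (1 library per bar). Outside the leading family, tumour 1 shows a band of Ighv2-2, tumour 2 a band of pseudogene counts, and tumour 3 mainly other V genes.

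Diversity was low in every tumour when all segments were counted. The effective number of segments, the inverse Simpson index, was 2.41 ± 0.0304 in tumour 1 (counting SE), 2.42 ± 0.0349 in tumour 2 and 1.22 ± 0.00691 in tumour 3, with a mean of 2.02 ± 0.690 (SD, n = 3). Tumours 1 and 2 differed by less than their counting error, and tumour 3 lay below both. The index over all segments counts near relatives as separate segments. Ighv11-1 had 1281 counts beside 3696 for Ighv11-2 in tumour 1, and Ighv14-2 had 1430 beside 3881 for Ighv14-3 in tumour 2. Ighv12-3 of tumour 3 has no such relative among the members. How tumours 1, 2 and 3 compare on it therefore depends on the uncertain division within families, which held 78.9%, 88.2% and 90.5% of Ighv counts. Outside the leading family the index was 1.49 ± 0.0381, 16.2 ± 1.19 and 13.9 ± 0.856 in tumours 1, 2 and 3. Without families 11 and 2 it was 11.7 ± 1.65 in tumour 1, so the low value there rested on family 2, in which Ighv2-2 had 1084 of 1094 counts.

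The number of segments seen was 54 in tumour 1, 74 in tumour 2 and 85 in tumour 3, of which 17, 13 and 17 rested on 1 count. At a fixed depth of 760 counts outside the leading family, the expected number of segments was 42.0, 70.0 and 75.3. At 234 counts with the families at 10% or more set aside, it was 46.0, 52.7 and 51.4, a smaller gap between tumour 1 and the others. The effective number of light chain V segments over 118 kappa and lambda rows was 1.25, 1.66 and 1.32 in tumours 1, 2 and 3.

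**Figure D2:**
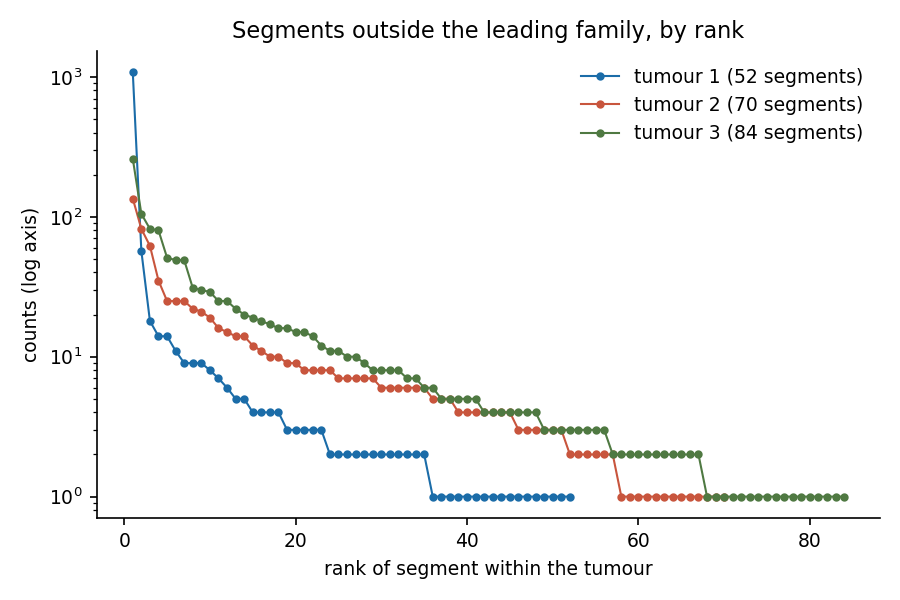
Counts (log axis) of each segment outside the leading family against its rank within the tumour. Tumour 1 starts with 1084 counts of Ighv2-2 and falls below the other curves from rank 2, while tumours 2 and 3 decline slowly over 70 and 84 segments.

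Individual minor segments differed between the tumours. In tumour 3 the highest was Ighv1-64, a V gene of the large family 1, with 260 counts there, 0 in tumour 1 and 7 in tumour 2. It was 21.2% (19.0 to 23.6) of the tail of tumour 3. It was followed by Ighv7-1 with 105 counts, Ighv5-12 with 82, Ighv6-3 with 80 and Ighv1-54 with 51. In tumour 1 these 4 had 14, 2, 6 and 0 counts, and in tumour 2 they had 22, 4, 9 and 3, so tumour 3 was above both others for each.

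In tumour 2 the highest minor segment was the pseudogene Ighv1-14 with 135 counts, 17.8% (15.2 to 20.6) of its tail. Ighv12-3 followed with 82 counts, Ighv1-26 with 62, Ighv9-3 with 35 and Ighv10-1 with 25, level with Ighv2-2 and Ighv2-9. Ighv1-26 had 3 counts in tumour 1 and 8 in tumour 3, and Ighv10-1 had 4 in each. Ighv9-3 had 0 counts in tumour 1 and 49 in tumour 3. As a share of Ighv counts it was 0.543% (0.390 to 0.754) in tumour 2 and 0.380% (0.288 to 0.502) in tumour 3, with overlapping intervals. In tumour 1, after Ighv2-2, the minor segments were Ighv14-3 (57 counts), Ighv14-2 (18), Ighv7-1 (14) and Ighv1-78 (14). Ighv1-78 had 4 and 2 counts in tumours 2 and 3. The 5 highest segments held 89.4% of the tail in tumour 1, 44.6% in tumour 2 and 47.2% in tumour 3.

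**Figure D3:**
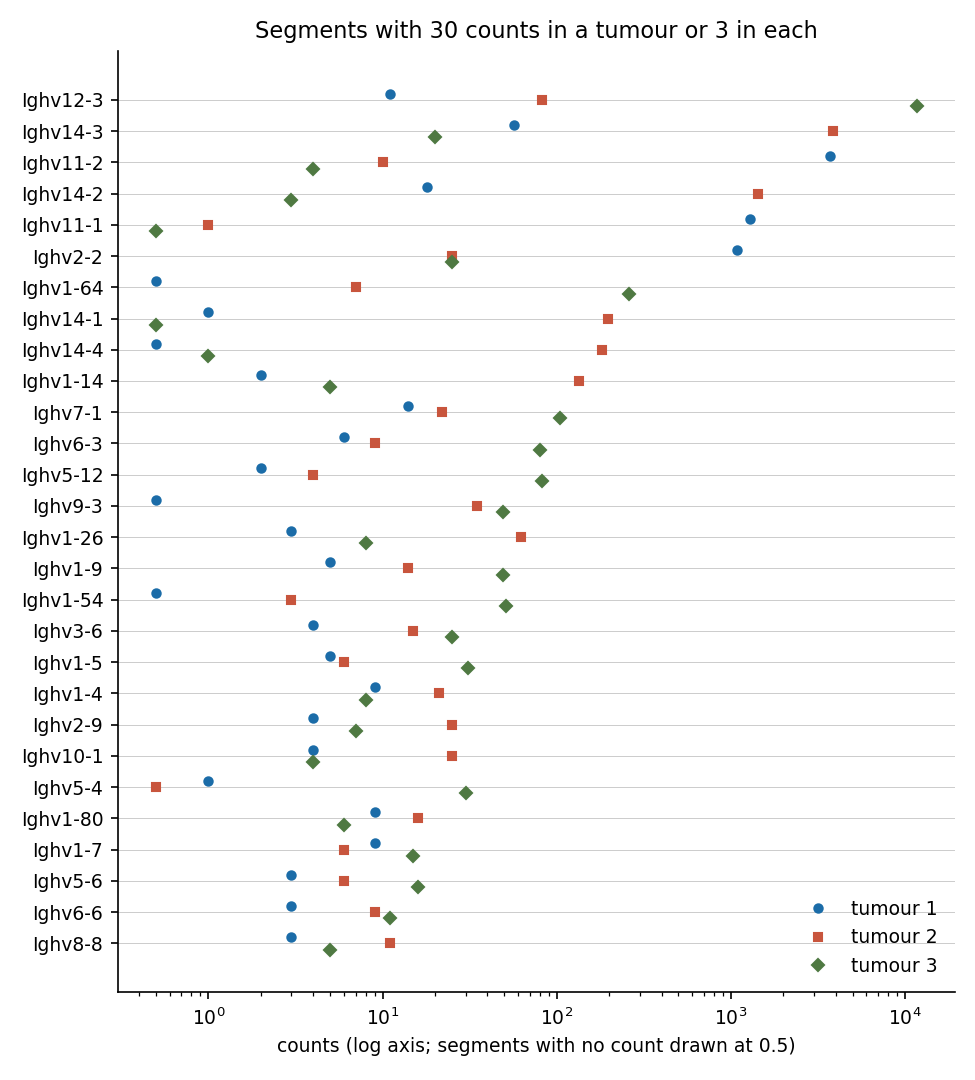
Counts (log axis) in tumours 1, 2 and 3 of the 28 segments with at least 30 counts in a tumour or at least 3 in each, from the highest summed count at the top. The leading segments and their relatives are separated between tumours by wide gaps, while segments such as Ighv1-80 and Ighv1-7 lie close together.

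A segment was called specific to a tumour when its log2 CPM (prior count 2) was at least 2 above both other tumours, among genes with 10 or more counts in any tumour. Of the 43 members that passed this filter, 3 were called in tumour 1, 8 in tumour 2 and 13 in tumour 3, against 1.77%, 2.85% and 5.02% of 15045 genes. In any tumour it was 24 of the 43 members, against 9.64% of all genes. A low segment that passes only through the tumour where it is high had to differ, so the counts are a description. The other 62 members were below 10 counts in every tumour. The 3 of tumour 1 were Ighv11-2, Ighv11-1 and Ighv2-2. Those of tumour 2 were the 4 members of family 14 with Ighv1-14, Ighv1-26, Ighv1-39 and Ighv10-1. The 13 of tumour 3 included Ighv12-3, Ighv1-64, Ighv7-1, Ighv6-3, Ighv5-12 and Ighv1-54. Ighv5-9 and Ighv1-43, with 22 and 10 counts in tumour 3, had none in the other two.

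Other segments were present in all tumours at low levels. Of the 105 members, 37 had a count in all 3 tumours, 34 in 2 and 34 in 1. With at least 3 counts in each, 19 remained, and 16 of these led no tumour. Apart from the leading segments and Ighv2-2, those with the highest level in their lowest library were Ighv7-1 (14, 22 and 105 counts), Ighv1-4 (9, 21 and 8), Ighv1-80 (9, 16 and 6), Ighv6-3 (6, 9 and 80), Ighv1-7 (9, 6 and 15), Ighv1-9 (5, 14 and 49) and Ighv1-5 (5, 6 and 31). Ighv1-5 overlaps the microRNA gene Mir7094-2 on the same strand, the only member that overlaps another annotated gene. Among segments with 3 or more counts, tumour 1 shared 21 of its 25 with tumour 2 (84.0% of those of tumour 1 and 38.2% of the 55 of tumour 2). It also shared 21 with tumour 3 (84.0% and 36.8% of 57). Tumours 2 and 3 shared 41 (74.5% and 71.9%).

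The leading segment of each tumour was also found in the others. Ighv14-3, which led tumour 2, had 57 counts in tumour 1 (0.904%, 0.698 to 1.17, rank 4) and 20 in tumour 3 (0.155%, rank 15). Ighv12-3, which led tumour 3, had 82 counts in tumour 2 (1.27%, 1.03 to 1.58, rank 6) and 11 in tumour 1 (0.174%, rank 8). Ighv11-2, which led tumour 1, had 10 counts in tumour 2 (0.155%, rank 21) and 4 in tumour 3 (0.0310%, rank 43). Relative to its count in the tumour it led, each segment reached at most 1.47% elsewhere.

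By family, 12 families had a count in tumour 1 and 14 in each of tumours 2 and 3, of 15 in all. Family 1, the largest with 52 members (6 of them pseudogenes), led the tail in tumours 2 and 3. It held 85 counts in tumour 1 (1.35% of Ighv counts, interval 1.09 to 1.66), 371 in tumour 2 (5.75%, interval 5.21 to 6.35) and 600 in tumour 3 (4.65%, interval 4.30 to 5.03). As a share of the counts outside the leading family this was 6.40%, 48.8% and 49.0%, and 36.3% in tumour 1 with family 2 also set aside. Tumours 2 and 3 thus gave nearly the same share of the tail to family 1, which has 52 of the 105 members, although different members led this family. Of its 371 counts in tumour 2, 135 were of the pseudogene Ighv1-14. As a share of Ighv counts, the intervals of tumours 2 and 3 did not overlap.

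The small families differed more. Family 5 had 10, 34 and 177 counts in tumours 1, 2 and 3, family 6 had 10, 18 and 111, and family 7 had 19, 31 and 110, all highest in tumour 3 also as a share of Ighv counts (1.37%, 0.861% and 0.853% there). Family 10 was highest in tumour 2, with 6, 30 and 7 counts. Family 9 had 0, 49 and 57 counts, family 4 had 0, 4 and 2, and family 15 had 2 counts in tumour 3 only. In tumour 1, a count of 0 allows a share of up to 0.0476% (3 of 6305 counts), and in tumour 3, where family 13 had none against 4 and 3, up to 0.0233%. Family 3 had 5, 38 and 48 counts and family 8 had 8, 20 and 21. Family 2 apart from tumour 1 had 69 and 62 counts, family 14 had 76 and 24 counts in tumours 1 and 3, family 12 had 11 and 82 in tumours 1 and 2, and family 11 had 11 and 4 in tumours 2 and 3.

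**Figure D4:**
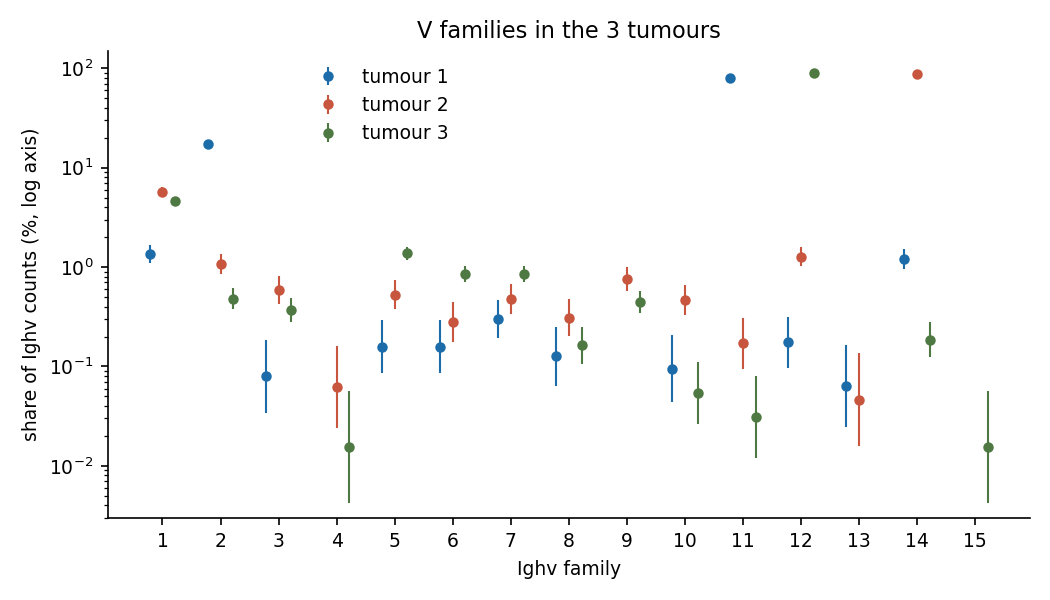
Share of Ighv counts (%, log axis) of each V family in tumours 1, 2 and 3, with 95% Wilson intervals as bars and families without a count left out. Families 11, 14 and 12 stand at the top in tumours 1, 2 and 3, and family 1 is at 5.75% in tumour 2 and 4.65% in tumour 3.

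V pseudogenes contributed little except in tumour 2. They held 3 counts in tumour 1 (0.0476%, 0.0162 to 0.140), 143 in tumour 2 (2.22%, interval 1.89 to 2.61) and 21 in tumour 3 (0.163%, interval 0.107 to 0.249), with a mean of 0.809 ± 1.22% (SD, n = 3) and 0.105% without tumour 2. Ighv1-14 (chromosome 12, ENSMUSG00000104422.1) accounted for 135 of the 143 counts in tumour 2 and for 2 and 5 counts in tumours 1 and 3. Without it, the pseudogene counts were 1, 8 and 16, or 0.0159%, 0.124% and 0.124% of all Ighv counts. On so few counts the intervals of tumours 2 and 3 were wide and overlapped (0.0629 to 0.245 and 0.0764 to 0.202). Of the stretches of 50 bases in Ighv1-14, 86.7% occurred in no other annotated Ighv segment, and its closest relative by shared stretches was the pseudogene Ighv1-83, which had 0, 0 and 1 counts.

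The other pseudogenes were near the floor. Ighv3-2 had 0, 2 and 9 counts in tumours 1, 2 and 3, Ighv3-7 had 0, 0 and 3, Ighv4-2 had 0, 2 and 1, and Ighv1-28 had 0, 3 and 0. The remaining 5 had 1 count each. As a share of the tail, pseudogenes made up 0.226% (0.0769 to 0.662), 18.8% (16.2 to 21.7) and 1.71% (1.12 to 2.61) in tumours 1, 2 and 3.

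All members lie on the minus strand of chromosome 12, between 113578504 and 115981134, at 0.149 to 2.55 Mb from the 5′ end of the Ighj1 segment (position 113429833). The families 2 and 5 lie nearest to the J segments, at up to 0.449 Mb, and family 1 lies farthest, at 1.06 to 2.55 Mb. Of the counts outside the leading family, 7.68% (6.37 to 9.24) lay beyond 1 Mb in tumour 1, against an interval of 53.0 to 60.1 around 56.6% for tumour 2 and of 49.5 to 55.1 around 52.3% for tumour 3. With Ighv2-2 and its family set aside, the value of tumour 1 was 43.6% (37.4 to 49.996). Each tail had counts in all bins of 0.5 Mb along the segment-bearing part of the locus. The largest part of the tail of tumour 2 lay at 1.0 to 1.5 Mb (41.2%, with Ighv1-14 and Ighv1-26). In tumour 3 the largest parts were at 0 to 0.5 Mb (28.3%, with Ighv7-1 and Ighv5-12) and at 2.0 to 2.5 Mb (27.2%, with Ighv1-64).

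**Figure D5:**
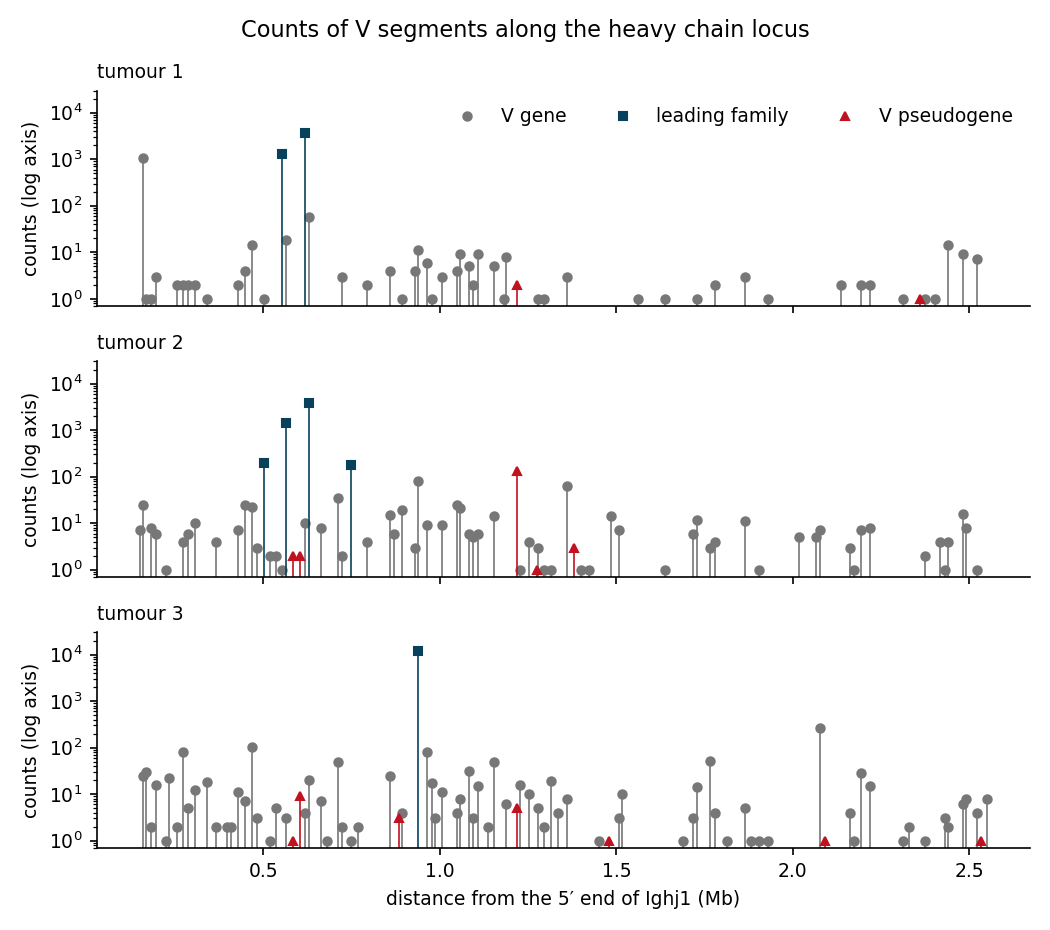
Counts (log axis) of each segment with a count against its distance (Mb) from the 5′ end of Ighj1, for tumours 1, 2 and 3, with the leading family as squares, other V genes as circles and pseudogenes as triangles. Minor segments are spread over the locus in each tumour, and the tall triangle in tumour 2 is Ighv1-14 with 135 counts.

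Within the leading families, counts were divided over near relatives. In tumour 1, Ighv11-1 had 1281 counts against 3696 for Ighv11-2. In tumour 2, Ighv14-2, Ighv14-1 and Ighv14-4 had 1430, 198 and 181 counts against 3881 for Ighv14-3. Per kb of exon, the leading segments held 52.1%, 57.4% and 91.0% of Ighv in tumours 1, 2 and 3. Ighv12-3, the only member of family 12 with a count, has no such relative among the members. Ighv14-2 was 26.9% (25.7 to 28.1) of the sum of Ighv14-2 and Ighv14-3 in tumour 2, 24.0% (15.8 to 34.8; 75 counts) in tumour 1 and 13.0% (4.54 to 32.1; 23 counts) in tumour 3. The 3 intervals overlapped, although family 14 led tumour 2 only.

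The J and D segments gave a partial view of the rest of the rearrangement. The J segments are 48 to 100 bases long and the D segments shorter than a read. Ighj1 held 640 of 828 J counts in tumour 1 (77.3%, 74.3 to 80.0) and 1062 of 1327 in tumour 3 (80.0%, 77.8 to 82.1), and Ighj3 held 584 of 788 in tumour 2 (74.1%, 70.9 to 77.0). Per length the same segments led, at 79.1% and 81.7% for Ighj1 in tumours 1 and 3 and 78.8% for Ighj3 in tumour 2. Ighj4 was next in every tumour, with 137, 118 and 116 counts, and Ighj2 had 38, 61 and 70. Ighj3 had 13 and 79 counts in tumours 1 and 3, and Ighj1 had 25 in tumour 2. Of 9 D rows, Ighd4-1 had 1 count in tumour 1, Ighd2-8 had 8 counts in tumour 2 and Ighd1-1 had 31 in tumour 3, and no other had any. The 8 heavy chain constant genes summed to 91291, 110065 and 118114 counts, so that 6.91, 5.86 and 10.9 Ighv counts were found per 100 constant counts in tumours 1, 2 and 3. Of the constant genes, Ighm led with 93.6%, 93.1% and 89.2%. Ighd, Ighg3 and Ighg1 also reached 1% in a tumour, with at most 4.40% (tumour 1), 7.81% (tumour 3) and 1.48% (tumour 2).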

How the data were processed

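PolyA RNA of sorted cells was read as single reads of 50 nt, per the labels. The authors deposited raw gene counts. FastQC, STAR (2.5.2b), featureCounts (1.6.0) and the mm10 build are listed in the submitters' processing notes, without settings. Strand, annotation release and the counting of reads with several hits are therefore not given in the sources used here. Positions, exon lengths and transcripts came from GENCODE M21 (GRCm38), to which 37536 of 37646 rows and all 105 members matched by identifier without version.

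The labels gave 1 group of 3 libraries, numbered in accession order, and do not state that these came from separate mice. Every library total counts only reads assigned to a gene. At these depths, 3 counts correspond to 0.193, 0.182 and 0.176 CPM before normalisation. CPM used TMM factors of 0.969, 0.990 and 1.04 from edgeR 4.0.16 (R 4.3.3), computed over 11273 genes that passed filterByExpr and applied to total counts. DESeq2 1.42.0 size factors were an alternative. Shares have 95% Wilson intervals, the inverse Simpson index an analytic standard error, and segments at a fixed depth the exact expectation for draws without replacement. No test was made, since there is 1 library per tumour. The steps were tested on simulated counts. Stretches of 50 bases were compared with both strands of the other annotated Ighv segments. Python 3.11.15, SciPy 1.17.1, pandas 2.3.3 and Biopython 1.88 were used.

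The leading family was set aside as a whole. Segments were named when they led a tumour, held 1% of Ighv counts in any tumour, were among the 5 highest outside the leading family of a tumour, among the 5 highest pseudogenes, or among the 10 members with at least 3 counts everywhere and the highest lowest level. Ighv1-39, Ighv5-9, Ighv1-43, Ighv1-83, Ighv2-4, Ighv2-9, individual J, D and marker genes were named after their values were seen. Constant genes were named from 1% of their class. Ighg2b, Ighg2c, Igha and Ighe, which stayed below it in every tumour, were named after their values were seen. The marker lists were T cell, NK cell, plasma cell, pan B cell, germinal centre, follicular B cell, B-1, macrophage, neutrophil and erythroid genes. The members and lists were chosen with earlier results of these data known.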

Additional observations from a re-analysis of the deposited data

How the results depend on the processing

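Of 86 recomputed values over 12 results, 75 stayed within the spread between tumours (for counts, within 1.5 times) and 11 moved. That spread is wide, and none of these values has a sign. The order of the tumours did turn: with every family at 10% or more set aside, tumour 1 had the lowest share (3.71%) and level (15.5 CPM), against the highest (21.1% and 88.0 CPM) outside the leading family alone. With only the leading segment set aside, the mean share outside it was 30.2% and the level 133 CPM, against 14.1% and 67.9 CPM outside the leading family. The level was 43.7 CPM with every family at 10% or more set aside and 43.0 CPM without Ighv2-2 (added after seeing the data). The exponential of the Shannon index gave 3.23 effective segments in all and 21.2 outside the leading family, against 2.02 and 10.5 by the inverse Simpson index. The mean number of segments seen was 71.0 from 1 count, 45.7 from 3 and 19.3 from 10. Segments present in all tumours numbered 19 from 3 counts, 37 from 1 and 4 from 10. Tumour-specific segments numbered 24, and 15 at a log2 distance of 3. These shifts follow from the construction of each alternative.

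Without tumour 2 the mean pseudogene share was 0.105% of Ighv counts and 0.970% of the tail, against 0.809% and 6.92% with all tumours, and without Ighv1-14 (chosen after seeing the data) these were 0.0889% and 0.889%. The distal share was 38.9% with all tumours and 54.5% without tumour 1, 24.3% with only the leading segment set aside and 18.4% with the limit at 1.5 Mb. With only the members that have at least 50% of their stretches to themselves, tumour 1 had 6.15% outside the leading family against 21.1%. Ighv2-2 and Ighv11-1, a member of the leading family, are then among those left out. Without Ighv2-2 alone (chosen after seeing the data) the share of tumour 1 was 4.67%. No paired analysis was possible because all libraries belong to 1 group. Segments with 1 or 2 counts are at the limit of the depth, and near-identical segments can be told apart only in part, with 61.4% of the stretches of Ighv11-2 and 47.7% of those of Ighv11-1 their own.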

Other observations

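Ighv5-4 and Ighv1-39, chosen after their values were seen, show how uneven single minor segments were. Ighv5-4 had 1, 0 and 30 counts in tumours 1, 2 and 3, and Ighv1-39 had 0, 14 and 0. Of the heavy chain constant genes other than Ighm, Ighg3 had 763, 3829 and 9220 counts in tumours 1, 2 and 3, Ighg2b 82, 631 and 920, Ighg2c 209, 558 and 836, and Igha 129, 174 and 291. Ighg1 had 633, 1626 and 109 counts, Ighe 9, 34 and 9, and Ighd 4014, 741 and 1389, so these genes did not share 1 order.

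Cr2, a complement receptor of mature B cells, had 129, 2443 and 5080 counts in tumours 1, 2 and 3.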
